A study of Homo sapiens with 8 samples.

Results

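Downstream open reading frames (dORFs) are small open reading frames in the 3′ untranslated region (UTR) of an mRNA, behind the stop codon of its main coding sequence. The dORFs described here are the 1598 smORFs, of 24199 in the deposited count table, whose primary location class in the authors' annotation is dORF. They were followed in ribosome profiling (Ribo-Seq) libraries of Caco-2 cells, a human line from a colon carcinoma whose cells come to resemble the absorptive cells of the small intestine when left to differentiate. The 8 libraries form 4 groups of 2 replicates. These are undifferentiated cells, differentiated cells labelled control, and 2 groups of differentiated cells given micelles. The micelles were taurocholate micelles without lipid, or lipid micelles with albumin, oleic acid and cholesterol. In the paper's mass spectrometry cultures of these kinds, differentiated cells were grown for longer and then kept overnight without serum, with or without micelles. Where the Ribo-Seq cultures were handled so, differentiation cannot be told apart from time in culture and serum. All groups are the same cell line, and the smORFs were called by the study over several intestinal lines and blood cells, so a listed dORF need not have been called in Caco-2. Nothing in the labels says that replicates came from separate cultures, so p-values measure only the spread between these libraries, which may be technical.

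After a ribosome ends translation at a stop codon it is normally released and recycled, and few ribosomes are found in 3′ UTRs. Footprints there can come from stop codon readthrough, from reinitiation, from ribosomes that were not recycled, or from other RNA fragments of footprint size, and Ribo-Seq counts over a dORF do not tell these apart. In contrast, upstream open reading frames (uORFs) in the 5′ UTR are met by scanning ribosomes before the main start codon. Counts of the main coding sequences were not used here, so a change of a dORF cannot be told apart from a change in the amount of its mRNA.

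The deposited smORFs run from a first codon to a stop codon, and 916 of the 1598 dORFs (57.3%) began with ATG, against 35.6% of uORFs. The others began with another codon, and of the 621 of these placed on a GENCODE transcript, 612 (98.6%) had a stop codon directly before the first codon, so that these frames run from stop to stop. The first 3 windows below show dORFs that start directly behind the stop codon of the host gene, and the other 4 show dORFs that start with ATG and changed on differentiation. Each window holds 30 bases of hg38 read 5′ to 3′ on the strand of the gene, with the first codon of the dORF in capitals.
IEC_17262 in SLC2A5, chr1:9037565-9037594, minus strand: gaacagtgaCTCtggagaggaagccagtgg
IEC_02782 in CLDN4, chr7:73831823-73831852, plus strand: tacgtgtaaGGTgccacggctccactctgt
IEC_06182 in GSKIP, chr14:96385676-96385705, plus strand: cagtcatgaCTAcactttttcctttcagag
IEC_16316 in APOA4, chr11:116820759-116820788, minus strand: agttctggtATGaacttgaggacacatgtc
IEC_04358 in MRPS26, chr20:3048169-3048198, plus strand: agagtagtgATGggaagattacagtctgag
IEC_02046 in H2AC6, chr6:26138128-26138157, plus strand: agtggatggATGgcattactgattcctaca
IEC_15993 in KITLG, chr12:88496971-88497000, minus strand: agaacttgcATGgagcaggactctatttta
In the windows of SLC2A5, CLDN4 and GSKIP the 3 bases before the capitals are the host stop codon. Among ATG starts, the base 3 before the ATG was a purine in 57.1% of dORFs and 57.1% of uORFs. A G directly after the ATG was found in 31.8% of dORFs and 36.0% of uORFs, and both features together in 17.4% and 22.2%.

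dORFs were short, with a median of 37 amino acids (range 6 to 147) against 28 for uORFs, and 94.4% lay in a single exon against 66.0% of uORFs. They fell in 809 host genes, of which 498 had 1 dORF each. As 786 dORFs (49.2%) overlapped another smORF on the same strand and share reads with it, they formed 1088 separate clusters. A repeat was recorded for 15.6% of dORFs, 37.5% of uORFs and 53.9% of smORFs in non-coding RNAs. The conservation value in the annotation is a mean PhyloCSF score, which is positive where substitutions between species look like those of coding sequence, on a scale that the sources used here do not state. Its median was -7.30 in dORFs, -6.59 in uORFs and -7.13 in non-coding RNAs.

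Only 6 dORFs (0.375%) had a mean PhyloCSF above 0, against 2.08% of uORFs. They lie in 3 host genes. PGS1, which makes the mitochondrial lipid precursor phosphatidylglycerophosphate, held 3 of them (2.49, 2.10 and 0.06), LRRC14 held IEC_01516 at 4.53 and IEC_01517 at 1.16, and HNRNPA2B1, which codes for an RNA-binding protein, held IEC_16116 at 1.35. The 3 frames of PGS1 had the same counts in every library, so their counts are not separate. Of all 1598 dORFs, 7 overlapped an annotated coding sequence on the same strand, and whether any of these 6 did is not given here. Counts of the 6 were low, from 0 to 9 in any library, and none passed the filter on low counts. The dORF of C1orf198 that the study names, IEC_16568, had 136 amino acids, a score of -7.43 and between 1 and 8 counts per library, and did not pass the filter either. Among dORFs that passed, the highest score was 0.00, listed for 8 of them, and it was not tested whether an exact 0 stands for a missing score. The 5 taken by the naming rule, 4 overlapping frames at ENSG00000242282 and 1 in SRSF8, a splicing factor gene, were not called in any comparison. The 3 longest dORFs tested, in CTDSP1 (146 amino acids), GNA11 (145) and RGS14 (144), had 5 to 146 counts per library and were not called.

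For 1473 dORFs (92.2%) the exons lay in the 3′ UTR of a protein-coding transcript of GENCODE release 44, for 96.2% of these the canonical transcript. The first codon lay a median of 152 nt behind the host stop codon (quartiles 42 and 390 nt) in UTRs with a median length of 1355 nt. It fell in the first 10% of the UTR for 43.8% of these dORFs. Host coding sequences had a median length of 594 nt. The dORF was in frame with the host coding sequence in 616 cases (41.8%), and in the other frames in 416 and 441 cases. Of the in-frame dORFs, 242 in 221 host genes had no stop codon between the host stop codon and the dORF, so that they lie in the stretch a ribosome would translate on reading through. Of the 242, 133 began directly behind the host stop codon and are in frame by definition, which adds to the 616.

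**Figure D1:**
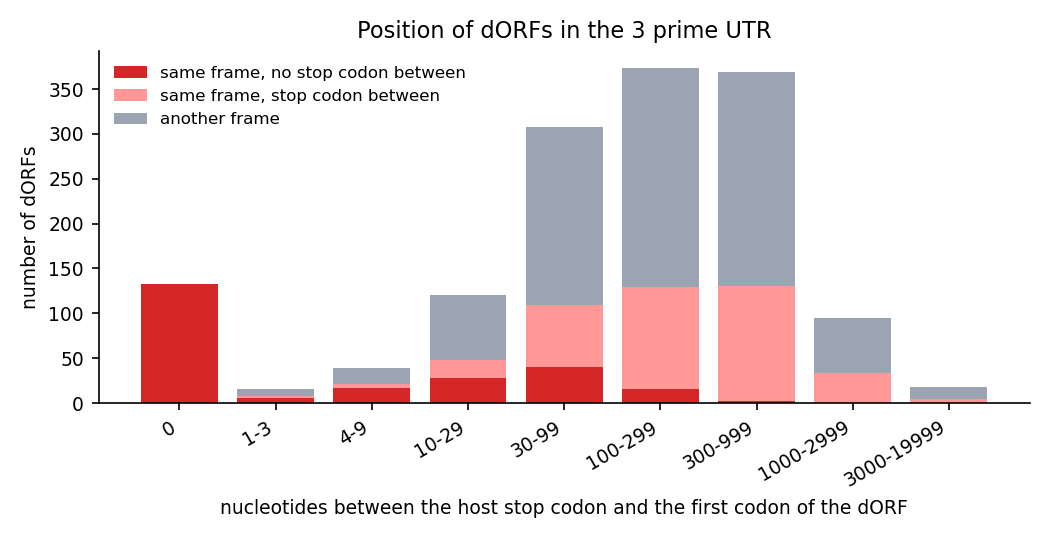
The number of placed dORFs (vertical axis) by the distance in nucleotides between the host stop codon and the first codon of the dORF (horizontal axis, bins of unequal width), coloured by reading frame relative to the host coding sequence. The 133 dORFs at distance 0 are by definition in frame with no stop codon between, and from 300 nt on only 2 dORFs open to the stop codon remain.

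The stop codons of the host genes were read from the genome. Of the 222 host transcripts with a dORF open back to the stop codon, 64.9% ended in TGA, against 51.5% of the 553 other host transcripts and 49.3% of all 19218 canonical protein-coding transcripts. TGA followed by C was found in 25.7%, 9.58% and 10.1% of these transcripts. The 6 bases TGACTA, a context described for efficient readthrough and searched for in the sense strand at the stop codon only, stood at the stop codon of 5 of the 222 (2.25%), 1 of the 553 (0.181%) and 50 of all (0.260%). These are descriptions of the sequence, and a readthrough event was not measured. The 5 transcripts are of GSKIP, TMEM86B, HPS6, HCLS1 and TTC4, which were picked out after their values were seen. In GSKIP, whose product binds the kinase GSK3B, dORF IEC_06182 had 8 and 6 counts in undifferentiated libraries, 22 and 36 in control, 21 and 18 with micelles without lipid, and 20 and 22 with lipid micelles. Both undifferentiated libraries lay below the other 6, and its log2 fold change on differentiation was 1.93 (SE 0.43, edgeR adjusted p = 0.00236). The TMEM86B dORF IEC_15356 had 2 and 7 counts in undifferentiated cells, 13 and 14 in control, 5 and 7 with micelles without lipid and 9 and 14 with lipid micelles, and was not called (log2 1.48, SE 0.62, edgeR adjusted p = 0.0686). The other 3 had 5 counts or fewer in every library.

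Library totals over all smORFs ran from 506382 to 884711 counts. smORFs in the epithelial genes CDH17, CDX2, EPCAM and KRT8 summed to 69.3 to 91.2 CPM (counts scaled to the library's TMM-adjusted total) in undifferentiated libraries and 258 to 365 CPM in the other 6, of which dORFs, mainly of CDX2, made up a part. The uORFs of these genes alone (in CDH17, CDX2 and KRT8) summed to 46.2 to 64.4 CPM and 81.6 to 156 CPM. Those in fibroblast genes (COL1A2, PDGFRB, THY1) summed to 0 in 7 libraries and 1.16 CPM in 1, and those in CD14 and PTPRC stayed at or below 1.95 CPM.

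dORFs took a larger part of the smORF counts in differentiated than in undifferentiated cells. In undifferentiated libraries 2.05% and 1.95% of counts fell in dORFs (Wilson 95% intervals 2.01 to 2.08 and 1.92 to 1.99), and in control libraries 3.88% and 3.66% (3.82 to 3.93 and 3.62 to 3.70). With micelles without lipid the shares were 3.44% and 3.20%, and with lipid micelles 3.02% and 3.66%. Every differentiated library lay above both undifferentiated libraries, while among the differentiated groups the first lipid micelle library was lowest and the second equalled a control library to 3 digits. The intervals cover counting error only, and with 2 libraries a group no exact permutation test can go below p = 0.333. In the same libraries the uORF share was 78.7% ± 1.53 in undifferentiated and 71.8% ± 1.05 in control cells (SD, n = 2), and the share of smORFs in non-coding RNAs was 18.7% ± 1.63 and 23.1% ± 1.16, so the dORF share was not alone in being higher in control.

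More dORFs had reads in differentiated than in undifferentiated libraries. At 10 counts or more, 414 and 342 dORFs were detected in undifferentiated libraries, 583 and 841 in control, 625 and 750 with micelles without lipid and 652 and 908 with lipid micelles. After every library was thinned to 506382 counts these were 292 and 290 against 583 and 579, with 560 and 500 for micelles without lipid and 463 and 564 for lipid micelles. In no library was any count seen for 111 dORFs (6.95%). These include all 9 dORFs of IGFBP5, which codes for an insulin-like growth factor binding protein.

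**Figure D2:**
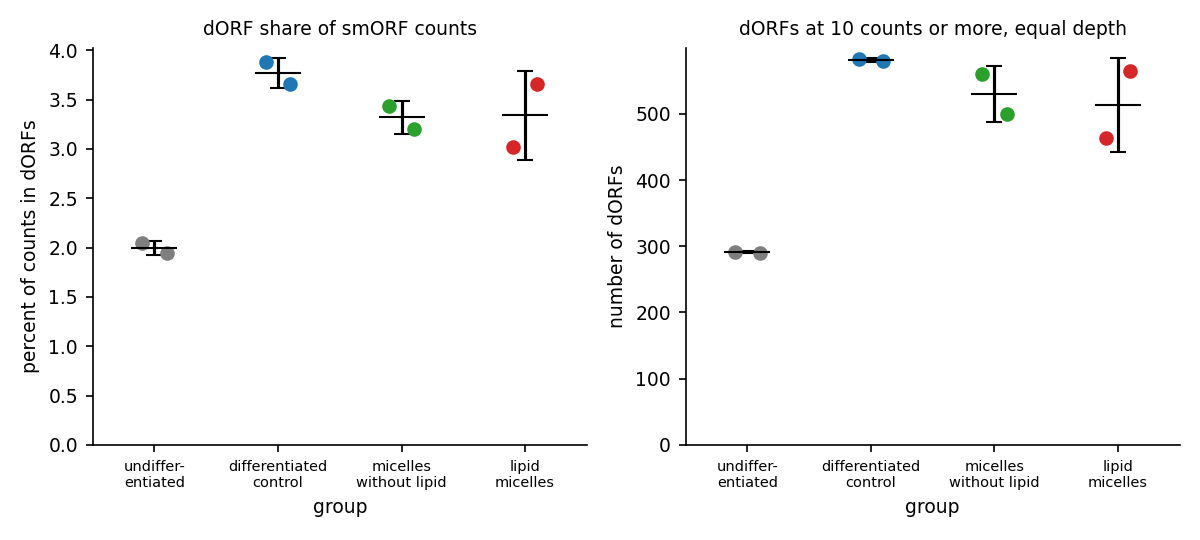
Left, the percentage of smORF counts that fell in dORFs in each library (points) by group, with the group mean and SD (n = 2, horizontal and vertical lines). Right, the number of dORFs with 10 counts or more after thinning to 506382 counts, where the undifferentiated libraries hold 292 and 290 dORFs and the control libraries 583 and 579.

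The question of the first comparison was which dORFs changed when Caco-2 cells differentiated. Of the 1598 dORFs, 879 passed the filter on low counts. By edgeR's quasi-likelihood test, fitted over 15182 smORFs, 320 dORFs (36.4% of those tested) were higher in control than in undifferentiated cells, where 17.7% of all smORFs tested were called higher. Only 24 dORFs (2.73%) were lower, where 15.6% of all smORFs tested were called lower. A smORF was called at an adjusted p under 0.05 and a change of at least 2-fold. The median log2 fold change was 0.95 over the dORFs tested and 0.01 over all smORFs tested, and 80.9% of the dORFs had a positive value. The 320 fell in 209 clusters and 167 host genes, and the 24 in 19 clusters and 17 host genes. In 311 of the 320, all 6 differentiated libraries lay above both undifferentiated libraries in CPM. For 124 of the 320, neither undifferentiated library held more than 3 counts, so that their folds are lower bounds. With 10 counts required in every library, 190 dORFs remained in the test, of which 50 were higher (26.3%, against 12.6% of all 6629 smORFs left) and 2 lower, and the median log2 fold change was 0.72.

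**Figure D3:**
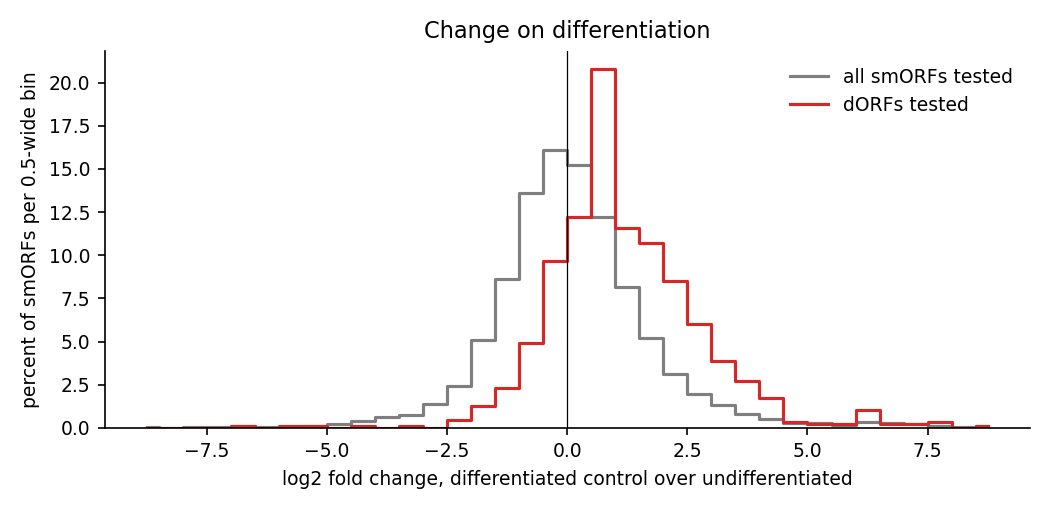
The percentage of smORFs (vertical axis) in each bin of log2 fold change, differentiated control over undifferentiated (horizontal axis), for the 879 dORFs tested (red) and all 15182 smORFs tested (grey). The dORF curve lies to the right, with a median of 0.95 against 0.01.

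The median was positive in every subset of dORFs formed by first codon, position, length and PhyloCSF score. The median log2 fold change was 0.99 for the 494 tested dORFs that begin with ATG and 0.92 for the other 385. It was 0.83 for dORFs starting within 29 nt of the host stop codon, 1.04 from 30 nt, 0.97 from 100 nt, 1.16 from 300 nt and 1.33 from 1000 nt on. For dORFs open back to the host stop codon it was 0.87 (132 tested, 46 higher, 6 lower), and for the other placed dORFs 1.05 (681 tested, 262 higher, 14 lower). With a repeat flag it was 1.24 (157 tested, 65 higher, 4 lower), and without 0.93 (722 tested, 255 higher, 20 lower). In 4 groups of nearly equal size by PhyloCSF score, from lowest to highest, the medians were 1.31, 1.13, 0.78 and 0.82. These differences between subsets were not tested, since dORFs of one UTR share a transcript and often reads.

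The 8 dORFs named for a rise lay in SLC2A5, APOA4, MRPS26, DAB1, S100G, FXYD3, AKAP7 and CDX2. SLC2A5 codes for the fructose transporter GLUT5, and its dORF IEC_17262 of 26 amino acids, at chr1:9037508-9037585, had no count in either undifferentiated library. It had 27 and 71 counts in control, 32 and 29 with micelles without lipid and 22 and 64 with lipid micelles. All differentiated libraries were therefore above the undifferentiated ones, and the rise was at least 14.4-fold against 3 counts per library (edgeR adjusted p = 1.32e-05). APOA4 codes for an apolipoprotein of chylomicrons, and its dORF IEC_16316 of 18 amino acids had 1 and 0 counts in undifferentiated cells, 42 and 96 in control, 53 and 103 with micelles without lipid and 52 and 91 with lipid micelles. It rose at least 20.6-fold (edgeR adjusted p = 1.03e-06), and it lies opposite exons of an annotated antisense gene, which counts of unstated strand cannot separate.

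MRPS26 codes for a protein of the small mitochondrial ribosomal subunit. Its dORF IEC_04358 of 24 amino acids had 0 and 2 counts in undifferentiated cells, 70 and 87 in control, 90 and 84 with micelles without lipid and 76 and 81 with lipid micelles, a rise of at least 24.9-fold (edgeR adjusted p = 6.55e-07). The overlapping IEC_04357 of 94 amino acids, which starts 43 nt behind the stop codon, went from 18 and 14 counts to 203 and 329 in control, with the smallest adjusted p of any dORF (log2 3.94, SE 0.31, edgeR adjusted p = 8.15e-08). Both frames thus rose together, and they share reads. A repeat flag is recorded for both, and how reads that map to several places were counted is not stated.

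Of the other dORFs named for a rise, 3 were nearly empty in undifferentiated cells. DAB1, an adaptor of reelin signalling, held the spliced dORF IEC_16921, which has a repeat flag. It had 1 and 0 counts against 36 and 63 in control, a rise of at least 15.2-fold (edgeR adjusted p = 1.03e-06). S100G, the intestinal calcium-binding protein calbindin-D9k, held IEC_04351 with 1 and 2 counts against 36 and 46, a rise of at least 13-fold (edgeR adjusted p = 1.62e-05). FXYD3, a regulator of the sodium pump, held IEC_02891 with 2 and 2 counts against 41 and 54, a rise of at least 15.0-fold (edgeR adjusted p = 3.14e-06). In each of these, none of the 6 differentiated libraries overlapped the undifferentiated pair. AKAP7, an anchor of protein kinase A, held IEC_00885 with 11 and 3 counts against 118 and 202 (log2 4.39, SE 0.38, edgeR adjusted p = 2.54e-07). CDX2, the intestinal homeobox factor, held IEC_17434 of 117 amino acids with 4 and 7 counts against 55 and 109 (log2 3.74, SE 0.39, edgeR adjusted p = 1.85e-06).

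The dORFs named for a fall include signalling ligands and a transporter. KITLG codes for stem cell factor, and its dORF IEC_15993 of 66 amino acids had 29 and 36 counts in undifferentiated cells, 0 and 1 in control, 5 and 3 with micelles without lipid and none with lipid micelles. It was at least 11.2-fold lower in control (edgeR adjusted p = 3.66e-05). SLC1A3, a glutamate transporter gene, held the spliced IEC_12333, which is among the dORFs not placed in a GENCODE 3′ UTR and has a repeat flag, with 24 and 28 counts against 1 and 0 in control, at least 8.96-fold lower (edgeR adjusted p = 0.000107). DKK1, a secreted Wnt inhibitor, held IEC_04018 with 28 and 12 counts against 1 and 1, at least 6.69-fold lower (edgeR adjusted p = 0.00129). The undifferentiated libraries lay above all 6 others for these 3 dORFs, as for all 24 dORFs called lower. The RNA-binding protein gene HNRNPDL held IEC_20537 with 26 and 17 counts against 3 and 2, at least 7.28-fold lower (edgeR adjusted p = 0.00331), and this call was lost without control replicate 2.

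The remaining falls were smaller. ITGAE, an integrin subunit gene, held IEC_13739 directly behind its stop codon, with 63 and 33 counts against 9 and 16 (log2 -2.02, SE 0.40, edgeR adjusted p = 0.000927). CENPX, a centromere protein gene, held IEC_22352 with 18 and 25 counts against 3 and 10 (log2 -1.83, SE 0.49, edgeR adjusted p = 0.00815), and the call was lost without undifferentiated replicate 2 (log2 -1.47) or control replicate 1 (log2 -1.41). At ENSG00000285589, IEC_13100, also not placed, went from 25 and 18 counts to 5 and 4 (log2 -2.30, SE 0.55, edgeR adjusted p = 0.00362), and without control replicate 2 the call was lost (log2 -1.81).

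**Figure D4:**
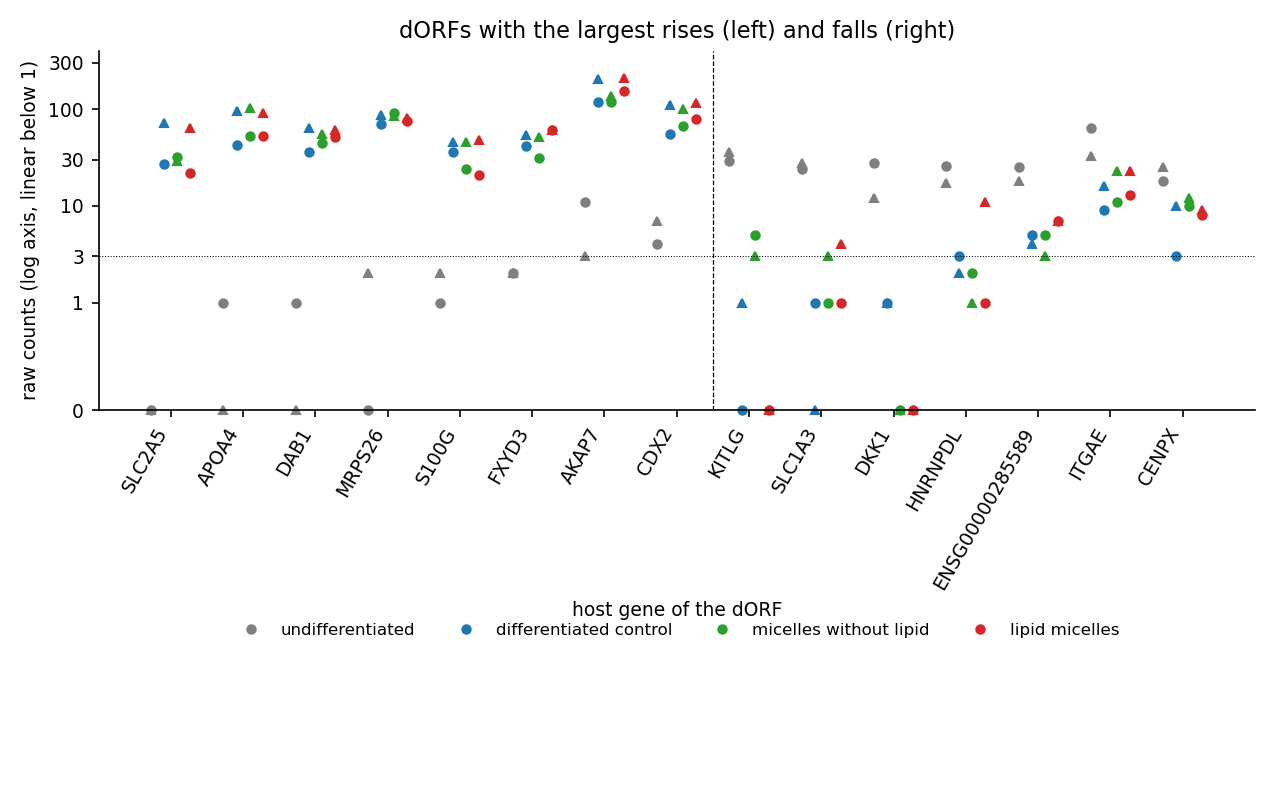
Raw counts in each library (vertical axis, log scale, linear below 1) of the 8 dORFs with the largest rises (left of the dashed line) and 7 of those with the largest falls (right), named by host gene. Circles are replicate 1 and triangles replicate 2, colours are the groups, and the dotted line marks 3 counts, and both undifferentiated libraries lie under it for 6 of the 8 rises.

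dORF counts were spread over many members, and the 10 with most held 11.4% of all dORF counts and the 100 with most 37.0%. The highest of all by CPM and by CPM per codon was IEC_00197 in TMC5, a frame of 12 amino acids of which 35 of 36 nt overlap a small nuclear RNA gene, and whether its counts come from that RNA was not tested. Its counts were 245 and 299 in undifferentiated libraries, 959 and 465 in control, 559 and 814 with micelles without lipid and 594 and 1556 with lipid micelles. It has a repeat flag, and it was called higher (log2 1.43, SE 0.41, edgeR adjusted p = 0.0114). The call was lost by DESeq2 (log2 1.41, DESeq2 Wald test adjusted p = 0.101), without control replicate 1 (log2 0.45) and without undifferentiated replicate 1 (log2 1.22). Of the 879 dORFs tested 19 overlap a small RNA gene, 6 called higher and 2 lower, and without them 314 dORFs were higher and 22 lower.

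The other most abundant dORFs did not overlap such genes. IEC_17949 in C4orf3, which codes for a small regulator of the calcium pump, lay at 66.9 ± 14.2 CPM in undifferentiated, 502 ± 73.8 in control, 487 ± 6.06 in the lipid-free micelle group and 459 ± 50.5 in the lipid micelle group (SD, n = 2), a log2 fold change on differentiation of 2.90 (SE 0.28, edgeR adjusted p = 6.65e-07). IEC_17465 in IGF2, the insulin-like growth factor, lay at 109 ± 21.3, 471 ± 169, 385 ± 138 and 302 ± 64.7 CPM in the same order (log2 2.10, SE 0.33, edgeR adjusted p = 0.000106). The level of IEC_00280 in AFP, the gene of alpha-fetoprotein, was 5.55 CPM per codon in undifferentiated cells, where it held 22 and 18 counts, and 26.8 in control with 78 and 130 counts (log2 2.27, SE 0.29, edgeR adjusted p = 1.78e-05). In contrast, IEC_13999 in the keratin gene KRT10 stayed at 365 ± 54.4, 351 ± 4.09, 434 ± 37.1 and 437 ± 8.46 CPM. Its log2 fold change on differentiation was -0.06 (SE 0.24), smaller than its error. In ATP5F1E, a subunit of ATP synthase, IEC_13347 had 263 and 191 counts in undifferentiated cells and 120 and 231 in control, or 376 ± 52.2 and 268 ± 46.6 CPM (SD, n = 2), and was not called (log2 -0.49, SE 0.25, edgeR adjusted p = 0.134). The overlapping ATP5F1E frame IEC_13346 had the opposite sign, at 205 ± 50.6 CPM in undifferentiated cells and 320 ± 81.5 in control. It was not called either (log2 0.65, SE 0.27, edgeR adjusted p = 0.0692).

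Several host genes held many dORFs along the UTR, and within a host gene their changes were often alike. All 10 dORFs tested in C4orf3 rose, with folds from 4.58 to 10.9, of which 1 is a lower bound. All 10 in NDRG1, a gene linked to differentiation and stress, also rose, each by a lower bound only (at least 3.11-fold to at least 11.5-fold), as did all 6 in PPP1R3E, a glycogen-targeting phosphatase subunit gene (at least 2.79-fold to at least 6.93-fold). So did all 8 in TMEM92 (2.92-fold to 11-fold, 3 of them lower bounds) and all 8 in SLC37A4 (2.14-fold to 6.09-fold, 1 a lower bound). In SLCO2B1, an organic anion transporter gene, 8 of 9 rose. In IGF2, 17 of 27 rose and in SCD, the stearoyl-CoA desaturase gene, 12 of 16. Other hosts moved little. None of the 15 dORFs tested in P4HB, which codes for a disulfide isomerase, was called (-0.25 to 0.65), nor any of the 11 in SLC9A3, the sodium-proton exchanger gene (-0.12 to 0.75). In TUG1, a gene better known for its long non-coding RNA, 3 of 16 rose. Frames in 1 host gene share a transcript and, within a cluster, reads, so they are not independent.

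Host genes were also read by lists of function, given here as counts and medians only. Their counts read against the 36.4% of dORFs and 17.7% of all smORFs that were called higher. The uORFs are those of all genes of a list, with or without a dORF, so dORFs and uORFs set side by side often come from different genes. Among 26 tested dORFs in 7 host genes of enterocytes and absorption, 12 rose, in 6 host genes, and none fell, with a median log2 fold change of 0.88. Of 40 uORFs in genes of this list 20 rose and 3 fell (median 1.18). All 6 in CDX2 were among those that rose, but they are not separate rises, as IEC_17434 and IEC_17436 among them overlap and share reads. Those that rose also include 2 in SLC40A1, the iron exporter gene, and the dORF IEC_06442 of PHGR1, a gut epithelial gene. The PHGR1 dORF went from 1 and 2 counts to 16 and 27 (at least 6.61-fold, edgeR adjusted p = 0.000361). Among 24 in 6 host genes of lipid absorption and lipoprotein assembly, 19 rose and none fell (median 2.0, or 1.71 with lower bounds), where of 56 uORFs 6 rose and 5 fell (median 0.18). Of the 19 dORFs that rose 12 lay in SCD and 4 in AGPAT2, a phosphatidic acid synthesis gene, and 1 each in APOA4, APOC3 and SAR1B. SCD held 16 of the 24 dORFs tested but only 1 of the uORFs. In SCD, IEC_03746 went from 3 and 2 counts to 27 and 29 (at least 9.01-fold, edgeR adjusted p = 0.000152). In APOC3, IEC_00285 went from 4 and 9 counts to 18 and 31 (log2 1.78, SE 0.48, edgeR adjusted p = 0.00865), and the call was lost without undifferentiated replicate 1 (log2 1.25).

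Among 14 dORFs in 8 host genes of sterol synthesis and its control, 3 rose and none fell (median 0.69), and of 52 uORFs 17 rose and none fell (median 0.79). INSIG2, which retains the sterol sensor complex in the endoplasmic reticulum, held IEC_00493 with 0 and 1 counts against 12 and 49 (at least 8.68-fold, edgeR adjusted p = 9.88e-05). The enzyme gene MSMO1 held IEC_00760 with 6 and 1 counts against 20 and 26 (log2 2.60, SE 0.56, edgeR adjusted p = 0.00166). The cholesterol synthesis gene DHCR7 held IEC_16156 with 4 and 5 against 14 and 39 (log2 2.39, SE 0.50, edgeR adjusted p = 0.0015). The dORFs of INSIG2 and DHCR7 have a repeat flag. Among 29 in host genes of the translation machinery, 7 rose, in 4 host genes, and 3 fell (median 0.35), where of 230 uORFs 8 rose and 65 fell (median -0.59). The 7 include the overlapping frames IEC_04357 and IEC_04358 of MRPS26. Of the 29, IEC_04402 lies where MRPS6 and the transporter gene SLC5A3 overlap, and it was not called. The 3 falls are overlapping frames of MRPL51, named after their values were seen. Each had 11 and 16 counts in undifferentiated cells and 5 and 3 in control (log2 -1.80, SE 0.66, edgeR adjusted p = 0.0404), and the call was lost by DESeq2 and without any 1 of the undifferentiated, control or lipid micelle libraries.

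The other lists had few dORFs. Of 4 in the list of other intestinal cell types, 3 lay in ASCL2, a transcription factor gene of intestinal stem cells, and 2 of these rose. The 1 in a secretory cell gene, AGR2, had a log2 fold change of 0.08 (SE 0.53) and was not called. Of 5 in selenoproteins, all in MSRB1, 2 rose, as did 2 of 10 uORFs. Of 3 in stress response genes 2 rose, both in DDIT4, an inhibitor of mTOR signalling, and of 44 uORFs 9 rose. The 1 in a zinc finger gene, ZNF395, has a repeat flag and rose, against 23 of 386 uORFs in such genes. Neither of 2 in cell cycle genes, both in STMN1, was called, where 48 of 53 uORFs of such genes fell. The 1 dORF tested in a gene with described readthrough, HNRNPA2B1, was not called.

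Whether a dORF changed apart from the other smORFs of its host gene was asked in 2 ways. In 154 host genes with both dORFs and uORFs among the smORFs tested (1 per overlap cluster), the mean log2 fold change of the dORFs was above that of the uORFs in 128 (83.1%). The medians were 1.16 for dORFs and 0.09 for uORFs, and the difference had a median of 1.01 with quartiles of 0.33 and 1.91. In 50 host genes the dORFs lay above 0 and the uORFs below 0, and in 6 it was the other way round. The changes of the 2 kinds went together across host genes (Pearson r = 0.706, n = 154, a description over genes that share the 8 libraries). Summed over these genes, dORFs held 7.87 and 8.70 CPM per 100 CPM of uORFs in undifferentiated libraries and 17.4 and 17.1 in control. With micelles without lipid these values were 15.4 and 14.6, and with lipid micelles 12 and 15.5, so that all 6 differentiated libraries lay above the undifferentiated pair. The log2 values here are as fitted, without lower bounds, and a dORF can pass the filter through the differentiated libraries alone. In CAMK2D the dORF held 0 and 0 undifferentiated counts and entered at 6.47. With 10 counts required in every library, 190 of 879 dORFs and 6629 of 15182 smORFs were left, so low counts weigh more on dORFs. The comparison of pairs was not repeated under that filter.

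**Figure D5:**
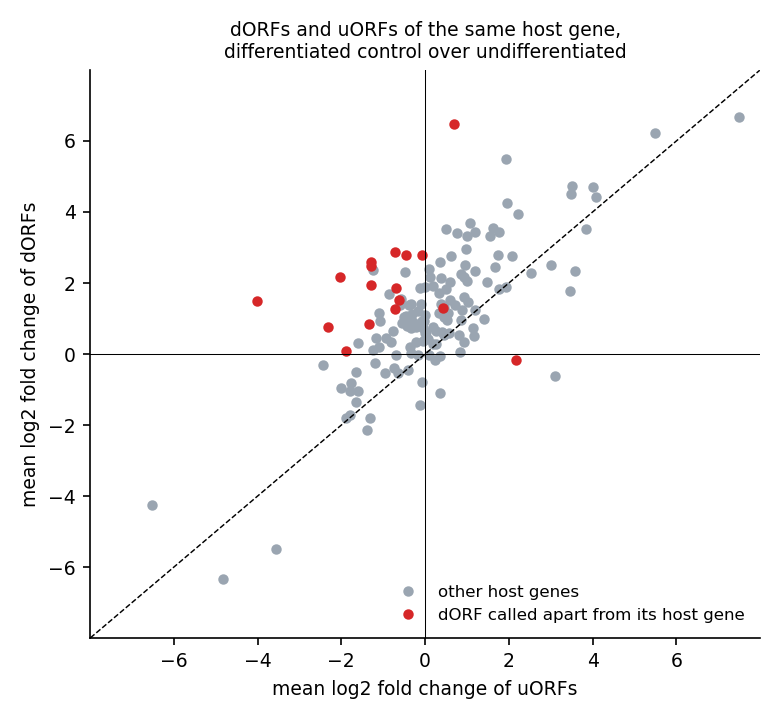
The mean log2 fold change, differentiated control over undifferentiated, of the dORFs (vertical axis) against that of the uORFs (horizontal axis) in 154 host genes with both. Points above the dashed line of equal change are the 128 genes in which dORFs had the higher value. Values are as fitted, without lower bounds for low counts. Red points hold a dORF called apart from the smORFs of its host gene.

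In edgeR's test of each smORF against its host gene, which covered 3308 smORFs with 1 per overlap cluster, 16 of 344 dORFs (4.65%) rose relative to their host gene, where 1.57% of all smORFs in the test were called higher. The test called 1 dORF lower (0.291%), where 1.15% of all were called lower. All 17 had a uORF among the other smORFs of the gene. The smallest p belonged to H2AC6, a histone H2A gene. Its dORF IEC_02046 had 3 and 4 counts in undifferentiated cells and 13 and 22 in control, and 12 to 15 in the other 4 libraries, while its uORF IEC_02045 fell from 2882 and 1261 counts to 338 and 752 (log2 -2.04, SE 0.31, edgeR adjusted p = 8.58e-05). The dORF changed by 4.19 on the log2 scale relative to the smORFs of the gene in the test, which were only this dORF and that uORF (edgeR adjusted p = 1.01e-05). In SLC37A4, the glucose-6-phosphate transporter gene, dORF IEC_15409 rose from 4 and 7 counts to 33 and 32, while uORF IEC_23385 fell from 132 and 109 to 45 and 58, a relative change of 3.12 (edgeR adjusted p = 4.42e-05).

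The next 3 rest on fewer counts, and for TMEM216 and IDH1, where one side held 3 counts or fewer in both libraries, no relative change is given. In TMEM216, a gene of the ciliary transition zone, dORF IEC_02565 had 3 and 4 counts against 5 and 17, and uORF IEC_02564 fell from 41 and 23 counts to 1 and 3 (edgeR adjusted p = 0.00327). In CLDN4, a tight junction claudin, dORF IEC_02782 rose from 10 and 9 counts to 31 and 48 while uORF IEC_02781 held 647 and 544 against 491 and 771 (relative change 1.87, edgeR adjusted p = 0.0056). In the isocitrate dehydrogenase gene IDH1, dORF IEC_15949 went from 2 and 1 counts to 12 and 11 while uORF IEC_15950 held 1881 and 1296 against 848 and 1663 (edgeR adjusted p = 0.00629). The dORF called lower, IEC_04402 in SLC5A3, a myo-inositol transporter gene, held 17 and 10 counts in undifferentiated cells and 8 and 18 in control, while its uORF IEC_04400 rose from 22 and 16 to 70 and 116 (relative change -1.82, edgeR adjusted p = 0.0194). Of the 17, only those of H2AC6 and SLC37A4 were still called without each of the 4 libraries of the 2 groups in turn. The number called fell to 5 without undifferentiated replicate 1, 5 without undifferentiated replicate 2, 6 without control replicate 1 and 5 without control replicate 2.

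The other comparisons asked whether micelles, with or without their lipid cargo, changed dORFs in differentiated cells. No dORF was called in any of the 3 by edgeR, as was the case for all 15182 smORFs tested (0% called in each). When equally numbered libraries were blocked as pairs among the 6 differentiated ones, again no dORF was called, and of 14360 smORFs 15 were called for micelles without lipid, 1 for lipid micelles and 14 between them. An unadjusted p under 0.05 was reached by 48 of 879 dORFs when cells with micelles without lipid were set against control, by 39 for lipid micelles and by 33 between both kinds of micelle. DESeq2 called no dORF either, with 10, 9 and 5 at an unadjusted p under 0.05. The median log2 fold changes of dORFs were -0.10 and -0.14 against control, where those of all smORFs tested were 0.01 and 0.00, and -0.02 between the micelle groups, where that of all was -0.01. Without the first lipid micelle library the value of -0.14 became -0.01 and without the second -0.31, and the -0.02 between micelle groups became 0.09 and -0.17. The -0.10 for micelles without lipid became -0.18 without their first library. The first 2 comparisons share their control libraries. The smallest p for micelles without lipid was at IEC_00888 in AKAP7, which had 69 and 142 counts in control and 38 and 52 with micelles without lipid (log2 -1.19, SE 0.32, edgeR adjusted p = 0.858), so that the groups did not overlap. The next was IEC_02782 in CLDN4, with 31 and 48 against 16 and 15 counts (log2 -1.32, SE 0.36, edgeR adjusted p = 0.858). Among the 24 dORFs tested in lipid absorption genes the median was 0.04 for micelles without lipid and -0.42 for lipid micelles, and none was called.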

How the data were processed

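Ribo-Seq libraries of Caco-2 cells were made by the authors after cycloheximide and RNase I. They aligned reads to hg38 with STAR (2.7.11a in the submitters' processing notes), scored open reading frames with RibORF and deposited raw counts per smORF from HOMER. Strand and multi-mapping options of the counting are not given in the sources used here. The authors' annotation gives location class, RibORF score and mean PhyloCSF score as deposited, and it lists 1599 dORFs, of which 1598 are in the count table.

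The quasi-likelihood test of edgeR 4.0.16 (R 4.3.3; filterByExpr, TMM, 1 term for each group) took in the 8 libraries together. p-values were adjusted by the Benjamini-Hochberg method over all smORFs tested. Calls needed an adjusted p under 0.05 and a log2 change of 1 or more either way. The host gene test was diffSpliceDGE on smORF counts only, with 1 smORF per overlap cluster. DESeq2 1.42.0 was an alternative. CPM are relative to TMM-scaled totals. Where both libraries of a group held 3 counts or fewer, folds were computed against 3 counts per library (3.49 to 5.86 CPM) and are lower bounds. Positions came from GENCODE release 44, and the genome sequence equalled the deposited one for 1596 of 1598 dORFs. Python 3.11.15, pandas 2.3.3, pysam 0.24.0 and matplotlib 3.10.9 were used.

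dORFs were named by rule: the 8 largest rises and falls (at least 20 counts on average in the higher group, no overlap, 1 per host gene), the 6 highest by CPM and by CPM per codon, the 5 highest by PhyloCSF among those tested (ties at 0), the 3 longest, the 5 smallest p in the host gene test, examples from each list and those the study names. Of the falls, 1 is not reported here. The TGACTA hosts, MRPL51, SLC5A3, the dORFs with a PhyloCSF above 0, the smallest p in the micelle comparisons and the host genes with many dORFs were added after values were seen. The members and lists were chosen with earlier results of these data known. Fits were tested on simulated counts: for control against undifferentiated cells, over 14154 smORFs, 36 of 40 raised by a log2 of 2 were called, 18 of 37 lowered by 2, and 5 of 13960 unchanged. Alternatives were scaling, filters, 1 smORF per cluster, DESeq2, leaving out libraries and a replicate block. Equally numbered libraries of the differentiated groups deviated together (r = 0.198, 0.119 and 0.109), so their numbers were taken as pairs, but not with undifferentiated cells (-0.0653 to 0.0208).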

Additional observations from a re-analysis of the deposited data

How the results depend on the processing

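The direction of the shift of dORFs on differentiation held under every alternative run, and no dORF called in both a main and an alternative fit changed sign. Against 344 calls, 10 counts in every library gave 52, 1 smORF per overlap cluster 221, and leaving out dORFs at 3 counts or fewer in both libraries of a group, chosen after seeing the data, 215; fewer dORFs enter these tests by construction. DESeq2 gave 232 (222 higher and 10 lower), and leaving out 1 library 248 to 386. The replicate block of 8 libraries gave 344 calls, a median of 0.96 and 18 dORFs in the host gene test; in the 6 differentiated libraries it gave 0 calls for each micelle comparison, and it changed no other call named here. The difference in dORF share of 1.77 percentage points moved to 2.53 with 1 smORF per cluster and to 1.53 without the 10 dORFs with most counts, and lay between 1.66 and 1.88 without a library. The median of 0.95 moved to 0.72 with 10 counts in every library and to 1.04 with 1 smORF per cluster, and lay between 0.96 and 1.13 without a library. The host gene test called 17 dORFs, 1 with 10 counts in every library and 5 to 20 without a library. The difference in dORFs detected was 334 at 10 counts and 176 at 2 counts. Signs turned when a library was left out for dORFs that were not called, with ranges of -0.19 to 0.11 for IEC_13999 in KRT10, -0.51 to 0.16 for IEC_18415 in ENSG00000242282, -0.09 to 0.57 for IEC_18416 in ENSG00000242282, -0.09 to 0.57 for IEC_18656 in ENSG00000242282, -0.37 to 0.16 for IEC_18657 in ENSG00000242282 and -0.72 to 0.56 for IEC_19432 in AGR2. Depth limits rises from near-empty libraries, where only bounds are given. Of 40 smORFs given a simulated log2 rise of 1 between undifferentiated and control cells, 5 were called. This rate does not measure the limit set by depth, since the estimate itself must reach 1 for a call. Of the 14154 simulated smORFs 13960 were unchanged, while in the data 5060 of 15182 were called, so the adjustment of p differs too. No such simulation was run for the micelle comparisons.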
